A study of Mus musculus with 32 samples.

Results

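The comparison described here is that of MF with CF liver at 8 weeks, that is, of female offspring of dams with maternal obesity (MO) with female offspring of control dams. Its members are 8 of the 32 liver RNA-seq libraries of the series, 4 MF and 4 CF, chosen by their sample titles, and each library came from 1 animal. MF dams ate a Western-style diet and CF dams ate chow, from before mating through pregnancy and lactation, and were mated with wild-type C57BL/6J males. All offspring of both groups were weaned at 3 weeks onto chow, stayed on it for 5 weeks, and were fed ad libitum when killed. Both groups were floxed littermate controls from a Reg3g floxed colony on a C57BL/6J background, with genotypes Reg3g-fl/+ or Reg3g-fl/fl, and how these genotypes were spread over the groups was not given in the sources used here. How the animals were spread over litters was not given in the sources used here, so p-values measure the spread between these animals and a litter effect cannot be told apart from an effect of diet. Reg3g itself was not among the genes listed at 8 weeks.

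Diet during pregnancy and lactation can change the supply of nutrients such as fat and sugar to the fetal and suckling liver. The iron content of the diets was not given in the sources used here. The liver answers such supply through a few well-known gene programmes. Cholesterol and fatty acid synthesis are driven by SREBP factors, and fatty acid oxidation by PPAR alpha. Iron is held in balance by hepcidin (Hamp), which the liver secretes under BMP-SMAD control and which blocks the iron exporter ferroportin (Slc40a1), while the transferrin receptor (Tfrc) brings iron into cells. The question of this comparison is which differences of expression were still measurable in females after 5 weeks without the maternal diet.

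Libraries held 30121183 to 33540873 counted reads in CF and 25689193 to 42574926 in MF. The 10 most abundant genes took 19.6% to 21.6% of the reads, and Xist, the transcript of the inactive X chromosome, was present in all 8 libraries at 486 to 903 CPM (reads of a gene scaled to the size of its library). Hepatocyte markers such as Alb, Apoa1 and Ttr were high throughout, with all 10 of 10 measured and a summed level of 125876 to 145380 CPM in CF and 123563 to 139090 CPM in MF. Among the 8 libraries, some stood apart without regard to group. On the first principal component, which held 35.4% of the variance, MF1 scored 113 and CF4 scored 86.8, while MF3 scored -79.5 and MF4 scored -71.5. Scores averaged 14.7 ± 56.8 in CF and -14.7 ± 89.0 in MF (exact permutation test, two-sided, n = 4 per group, p = 0.571, where 0.0286 is the smallest p possible). Spearman correlations between libraries were 0.978 to 0.992 across the groups, against 0.980 to 0.991 within CF and 0.974 to 0.993 within MF. MF1 was also the most deeply sequenced library.

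No gene passed the test between MF and CF at 8 weeks. Of 14195 genes tested with edgeR's quasi-likelihood test, 0 had a Benjamini-Hochberg false discovery rate (FDR) below 0.05, which is 0% of the genes. The lowest FDR was 0.533. The likelihood ratio test, the exact test and DESeq2 each called 2 genes (0.0141% for the likelihood ratio test), Cd36 and Atxn1, and limma voom called 0. At an unadjusted p below 0.05 there were 316 genes (2.23%), 158 higher and 158 lower in MF, and for 47 of them the fitted difference was at least 2-fold. Where no gene differs, a share of about 0.05 of all genes has such a p, and 2.23% lies below that. Leaving out MF1 raised the 316 to 847, leaving out CF2 raised it to 509, and leaving out CF3 or MF3 lowered it to 195 or 200, while the count of called genes stayed at 0 in all 8 repeats. In every one of these repeats 67 of the 316 genes kept an unadjusted p below 0.05, but each repeat shared all but 1 library with the full fit. Libraries of the groups did not overlap for 220 genes (1.55%), 100 with all MF above all CF (0.704%) and 120 with all MF below all CF (0.845%). Where groups of 4 and 4 do not differ, a share of about 0.0286 of genes does not overlap.

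**Figure D1:**
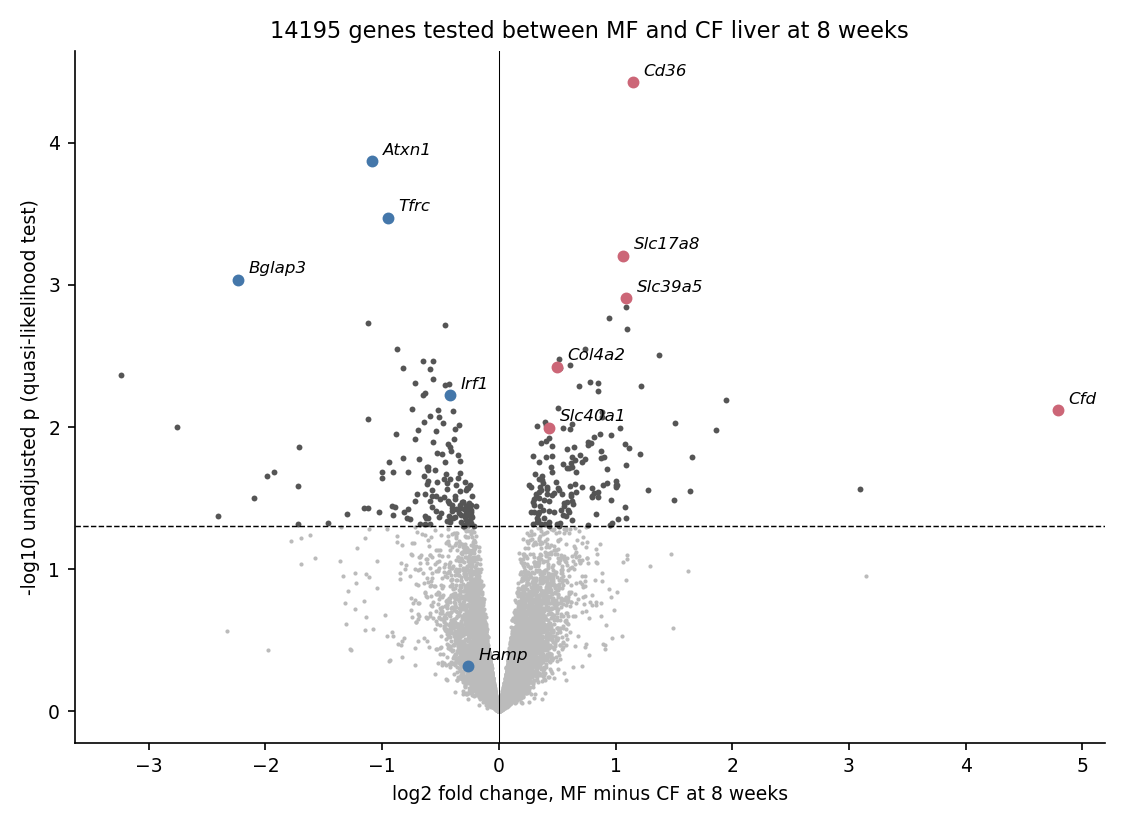
Each point is 1 of 14195 genes, with its log2 fold change of MF minus CF at 8 weeks on the horizontal axis and -log10 of the unadjusted quasi-likelihood p on the vertical axis; 316 dark points lie above the dashed threshold of 0.05. Cd36, Atxn1 and Tfrc have the lowest p, Hamp sits near 0, and Cfd lies far to the right through library MF3 alone.

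The intervals show how large a difference these 8 libraries leave room for. The 95% interval of the fold change lay within 1.5-fold in either direction for 8354 genes (58.9%) and within 2-fold for 12499 (88.1%). Precision followed expression level. Genes under 1 CPM had a median half-width of 0.79 on the log2 scale, and 1.21% of them were held within 1.5-fold, against 0.33 and 81.8% for genes of 10 to 100 CPM and 82.0% above 100 CPM. A difference under 1.5-fold was therefore not detectable for most weakly expressed genes at this depth and number of animals.

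Cd36 had the smallest p of all genes. It encodes the fatty acid translocase, a surface receptor that takes up long-chain fatty acids, and lies at chr5:17781690-17888801 on the minus strand (mm10). Its level was 21.1, 41.2, 33.1 and 30.6 CPM in the CF livers and 66.0, 86.3, 70.1 and 57.7 CPM in the MF livers. All MF libraries lay above all CF libraries, and the means were 31.5 ± 8.3 and 70.0 ± 12.0 CPM. The fold change was 2.22 (95% interval 1.64 to 3.02), a log2 difference of 1.15 with an SE of 0.21. The quasi-likelihood FDR was 0.533 and the likelihood ratio FDR was 0.00184. Without any 1 of the 8 libraries the log2 difference ranged from 1.00 to 1.31. In males at the same age, the difference of MM (male offspring of MO dams) and CM (control males) was 0.39 on the log2 scale.

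Cd36 is also expressed by sinusoidal endothelium and macrophages, and in whole liver more cells of a type and more RNA per cell cannot be told apart. The 10 endothelial markers, all measured, summed to 261 to 479 CPM in CF and 254 to 458 CPM in MF. The 12 macrophage markers summed to 526 to 649 CPM in CF and 402 to 780 CPM in MF. Both ranges overlapped between the groups. All 10 endothelial markers were higher in MF, with a median of 0.15 on the log2 scale, against 6 of 10 and 0.04 without MF1 and a median of 0.41 without CF4, and the part of both cell types in the result was not tested. Of the 10 adipose markers, 6 were tested and the defining Adipoq, Lep, Plin1 and Retn were not among the listed genes. Adipsin (Cfd) was at 4.38 CPM in MF3 and at most 0.0933 CPM in the other 7 libraries. Cd36 in MF3 (70.1 CPM) lay between those of the other MF libraries, and without MF3 the Cd36 difference was 1.17. Of the 6 adipose markers tested, 5 were higher in MF. At an unadjusted p below 0.05 were 3 of these, Cfd, Cidec and Fabp4 (0 without MF3), beside 1.11% of all genes. In the fit of the 8 female libraries alone Cfd was not tested, and 2 of 5 markers had such a p. The 6 markers summed to 2904 to 3788 CPM in CF and 3104 to 4201 CPM in MF. Most of this sum came from Pck1 (means of 2052 CPM in CF and 2206 CPM in MF) and Car3 (1288 and 1442 CPM).

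Atxn1 and Tfrc came next. Atxn1, a transcriptional corepressor known from spinocerebellar ataxia, was at 40.0, 16.3, 28.0 and 23.9 CPM in CF and at 10.1, 12.2, 14.1 and 14.7 CPM in MF, with no overlap. Its log2 difference was -1.08 (SE 0.22), and it was -0.25 at 3 weeks with an FDR of 0.377 (edgeR). Tfrc was at 21.5, 25.7, 27.8 and 29.9 CPM in CF and at 12.1, 14.7, 15.5 and 12.0 CPM in MF. Every MF liver therefore held less Tfrc RNA than every CF liver, with means of 13.6 ± 1.8 against 26.2 ± 3.6 CPM. The log2 difference was -0.95 (SE 0.21) with a likelihood ratio FDR of 0.0911 in edgeR, and it stayed between -1.04 and -0.87 without any 1 library.

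**Figure D2:**
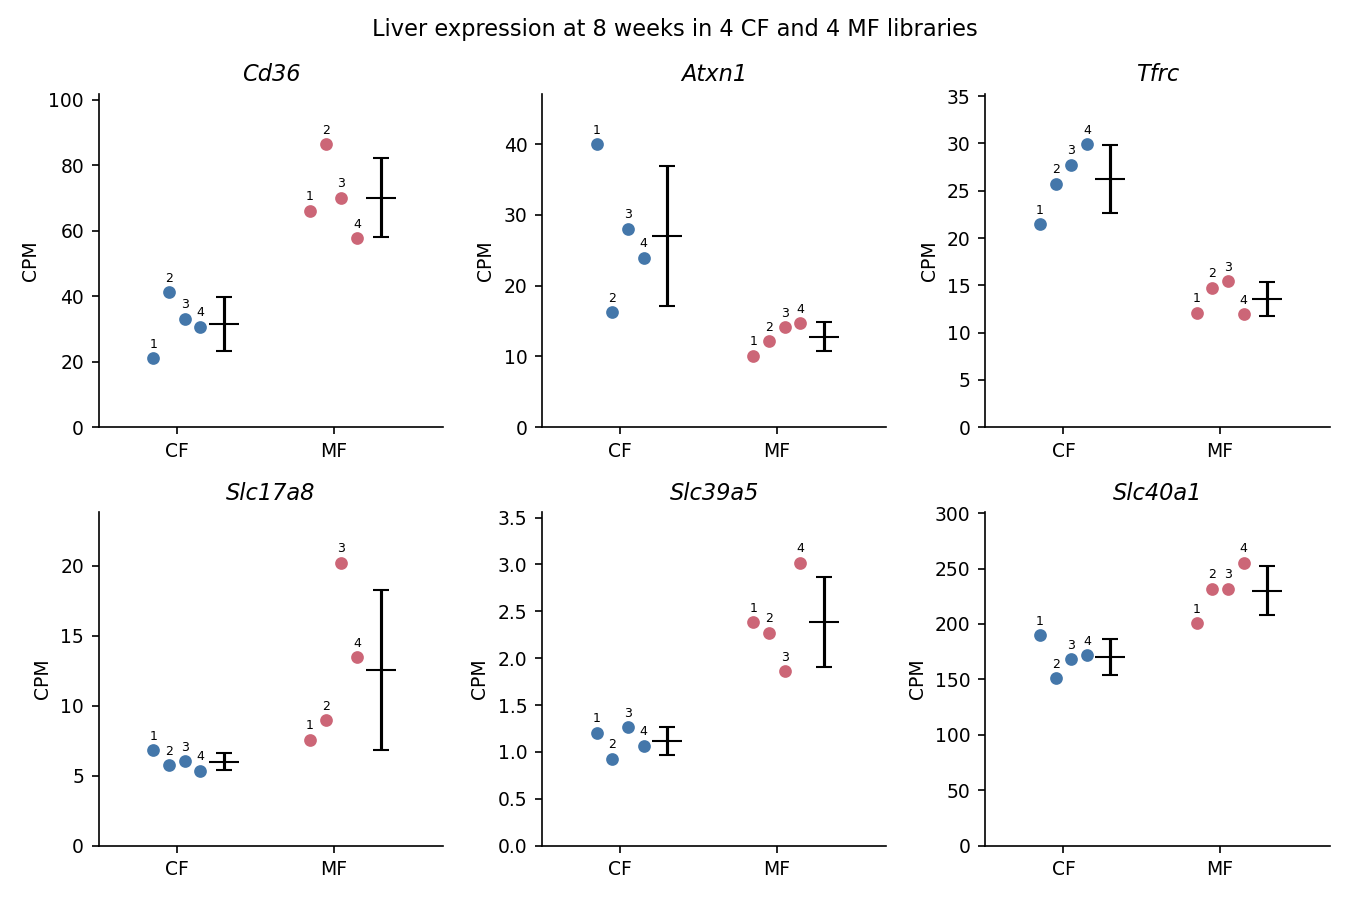
Points are CPM in single libraries at 8 weeks, numbered by replicate, for 4 CF (blue) and 4 MF (red) livers, and black bars are the mean ± SD; each vertical axis starts at 0 and has its own range. In all 6 genes the CF and MF points do not overlap, from Cd36 (21.1 to 41.2 against 57.7 to 86.3 CPM) to Slc40a1 (151 to 190 against 201 to 255 CPM).

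Most of the other genes among the 12 of smallest p were expressed at low levels. Slc17a8, a vesicular glutamate transporter, was at 5.37 to 6.82 CPM in CF and at 7.56, 8.94, 20.2 and 13.5 CPM in MF, a log2 difference of 1.07 (SE 0.25) that was 0.75 without MF3. Slc39a5, a zinc importer of the liver, was at 1.20, 0.928, 1.26 and 1.07 CPM in CF and at 2.39, 2.27, 1.86 and 3.02 CPM in MF, a log2 difference of 1.09 (SE 0.28). Slc39a5 was also called at 3 weeks, at 0.86 with an FDR of 0.0231 (edgeR), and was 1.45 higher in MM than in CM on the log2 scale at 8 weeks. Gal3st1, a sulfotransferase of glycolipids, had a log2 difference of 1.09 and Sult2a7, a sulfotransferase of sterols whose near-identical relatives make its counts uncertain, one of 0.95, both with no overlap of libraries. Nuak2, an AMPK-related kinase, was at 13.4 to 18.6 CPM in CF and at 10.8 to 11.6 CPM in MF, a log2 difference of -0.46. The remaining genes were Bglap3 (-2.23), Gm16731 (-1.12), Gm6969 (1.10) and 4833417C18Rik (-0.87), each below 3 CPM in every library.

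Iron genes were described as a group since Tfrc belongs to it. Of the 24 genes of iron handling and BMP-SMAD signalling, all tested, 3 had an unadjusted p below 0.05, 1 of them higher and 2 lower, namely Slc40a1, Tfrc and Id3, beside 1.11% of all genes in each direction. Without single libraries 2 to 5 of the 24 had such a p. The list was taken up because of Tfrc, so the count is in part set by that choice. The median of the list was -0.03 on the log2 scale, against -0.01 for all genes tested. Some transcripts of iron genes carry an iron-responsive element (IRE), a hairpin that is bound by iron regulatory proteins when cell iron is low. As background, such a hairpin in the 3′ UTR protects the Tfrc transcript from decay, and one in the 5′ UTR holds back translation of Slc40a1, Alas2 and ferritin. The sequences are shown because Tfrc and Slc40a1, whose libraries did not overlap, hold such an element, together with those of Fth1 and Ftl1 of the same list and of Alas2, which is not on the list. The search took the core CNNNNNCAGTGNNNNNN on the transcript strand, in which 5 bases before the loop pair with 5 bases after it, in the UTRs of the longest transcript of each of 21875 protein-coding genes (GENCODE annotation of mm10). The last base of the loop was any but G. The core occurred in 108 genes (0.494%), and Tfrc, with 4, was the only gene that held 3 or more. Each run below is printed 5′ to 3′ with 5 bases on both sides of the core, and capitals mark the loop of 6 bases.
Tfrc, 3′ UTR, core at chr16:32631225-32631241, plus strand: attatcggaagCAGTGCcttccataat
Tfrc, 3′ UTR, core at chr16:32631604-32631620, plus strand: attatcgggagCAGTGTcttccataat
Tfrc, 3′ UTR, core at chr16:32631669-32631685, plus strand: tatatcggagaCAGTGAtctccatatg
Tfrc, 3′ UTR, core at chr16:32631716-32631732, plus strand: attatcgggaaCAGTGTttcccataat
Slc40a1, 5′ UTR, core at chr1:45925471-45925487, minus strand: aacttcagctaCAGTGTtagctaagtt
Alas2, 5′ UTR, core at chrX:150547464-150547480, plus strand: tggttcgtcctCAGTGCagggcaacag
Fth1, 5′ UTR, core at chr19:9982738-9982754, plus strand: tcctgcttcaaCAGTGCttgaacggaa
Ftl1, 5′ UTR, core at chr7:45459785-45459801, minus strand: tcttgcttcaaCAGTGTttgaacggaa

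Among the genes shown with the core in the 5′ UTR, Slc40a1 and Alas2 were higher in MF, and Fth1 and Ftl1 were not distinguishable from 0. Slc40a1 was at 190, 151, 168 and 172 CPM in CF and at 201, 232, 232 and 255 CPM in MF, so that all MF libraries lay above all CF libraries. Its log2 difference was 0.43 (SE 0.15), it lay between 0.38 and 0.49 without any 1 library, and it was 0.00 at 3 weeks with an FDR of 0.986 (edgeR). Alas2, the first enzyme of heme synthesis in red cell precursors, was at 12.1 to 19.7 CPM in CF and at 16.8 to 26.3 CPM in MF, a log2 difference of 0.41 (SE 0.17) that was 0.27 without MF3. The 4 globin genes of the red cell list gave log2 differences of -0.15 to 0.09. Of the 10 red cell markers, 7 were tested and summed to 110 to 269 CPM in CF and 104 to 212 CPM in MF, and Tfrc and Alas2 are themselves on that list. The ferritin chains Fth1 (-0.10, SE 0.22) and Ftl1 (-0.02, SE 0.23) had intervals that included 0. Over the 82 tested genes with a core in a UTR, 43 were higher and 39 lower in MF, and 4 had an unadjusted p below 0.05, beside 2.23% of all genes. A match in sequence does not show that a site was bound.

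Hepcidin had a far larger difference at 3 weeks than at 8 weeks. At 3 weeks Hamp was at 516, 479, 257 and 287 CPM in CF and at 0.328, 0.0958, 0.0430 and 0 CPM in MF, where no library held more than 15 reads, so the size of the log2 fold at 3 weeks is imprecise. At 8 weeks it was at 1102, 941, 1136 and 815 CPM in CF and at 1762, 356, 371 and 842 CPM in MF. The MF livers at 8 weeks thus spanned the CF range, with MF1 above it and MF2 and MF3 below it. The log2 difference at 8 weeks was -0.26 (95% interval -1.03 to 0.51), and the 8-week difference exceeded the 3-week difference by 11.4 (SE 0.85, edgeR FDR 2.4e-06). Without MF1 the 8-week value was -0.93, without MF2 it was -0.01 and without MF3 it was -0.0032. Hamp2, its near copy, was at 190 to 619 CPM in CF and at 1364, 128, 148 and 345 CPM in MF, a log2 difference of 0.08 that turned to -1.18 without MF1.

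Id3, a target of BMP-SMAD signalling, was at 83.5, 45.0, 53.0 and 51.8 CPM in CF and at 51.4, 36.3, 34.0 and 52.0 CPM in MF. The groups overlapped, and the log2 difference of -0.43 (SE 0.19) was -0.20 without CF1. At 3 weeks it was -2.21, and the difference between ages was 1.79 with an FDR of 0.00242 (edgeR). Tfrc changed sign between the ages. It was at 12.6 to 22.6 CPM in CF and at 106 to 215 CPM in MF at 3 weeks, a log2 difference of 3.15, and the change of the contrast to 8 weeks was -4.10 (SE 0.29, edgeR FDR 2.4e-06). Slc11a2, the divalent metal importer, also went from 0.67 at 3 weeks to -0.29 at 8 weeks, a difference between ages of -0.96 with an FDR of 0.0200 (edgeR).

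**Figure D3:**
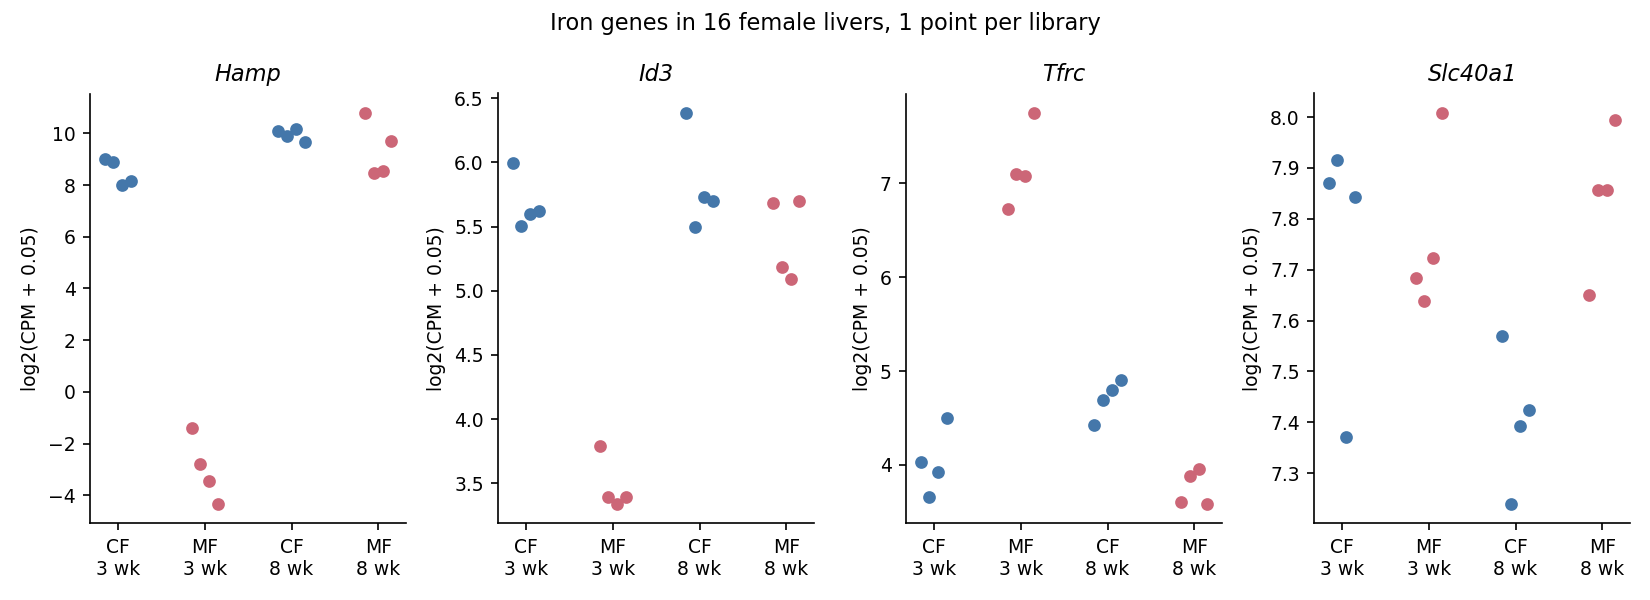
Points are single female libraries at 3 and 8 weeks as log2 of CPM plus 0.05, with CF in blue and MF in red, and each panel has its own vertical range. Hamp and Id3 of MF sit far below CF at 3 weeks and beside CF at 8 weeks, Tfrc of MF goes from above CF (106 to 215 against 12.6 to 22.6 CPM) to below CF, and Slc40a1 of MF lies above CF at 8 weeks.

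Of the 32 tested genes of triglyceride synthesis and lipid droplets, 4 were higher and 0 lower at an unadjusted p below 0.05, beside 1.11% of all genes in each direction, and the list median was 0.08 on the log2 scale (0.03 without CF1 and 0.04 without MF4). Without CF4 or MF3 the 4 became 2. They were Cd36, Fabp4 (a fatty acid binding protein), Cidec (a lipid droplet protein) and Fitm1 (which partitions fat into droplets). Cidec was at 0.602, 0.629, 0.587 and 0.314 CPM in CF and at 1.08, 0.433, 1.96 and 1.03 CPM in MF. Fabp4 was at 4.04 to 5.21 CPM in CF and at 6.71, 6.92, 9.67 and 4.45 CPM in MF. Both were highest in MF3, the library that held Cfd, and without MF3 the log2 differences were 0.70 for Cidec (1.09 with it) and 0.43 for Fabp4 (0.62 with it). Fitm1 was highest in MF1, at 10.3 CPM, and its log2 difference of 0.56 was 0.33 without MF1.

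Most genes of fatty acid oxidation and ketogenesis were slightly higher in MF. Of 32 genes, 29 were higher with a median of 0.12 (0.07 without CF4 and 0.19 without MF1), and 2 had an unadjusted p below 0.05, beside 2.23% of all genes, the acyl-CoA thioesterases Acot2 and Acot1, against 1 to 5 genes without single libraries, 5 of them without MF1. Acot2 was at 5.28, 5.69, 5.72 and 3.04 CPM in CF and at 5.87, 8.83, 7.54 and 8.71 CPM in MF, a log2 difference of 0.65 (SE 0.24). Acot1 was at 9.52 to 30.3 CPM in CF and at 11.9 to 47.3 CPM in MF, so the groups overlapped, and its log2 difference of 0.84 was 0.58 without MF2. At 3 weeks 18 genes of this list were called higher, with a median of 0.47, beside 14.4% of all genes called in either direction.

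Cholesterol synthesis genes were mostly lower in MF. Of 26 genes, 25 were lower with a median of -0.17, which became -0.08 without CF3 and -0.27 without MF1. At an unadjusted p below 0.05 were 2 of them, Insig1 and Lss, beside 1.11% of all genes lower at that p, against 0 without CF3 or without MF3, 4 without CF1 and 5 without CF2 or without MF1. Insig1, the sterol sensor that retains SREBP in the endoplasmic reticulum, was at 467, 638, 714 and 588 CPM in CF and at 434, 404, 378 and 530 CPM in MF, a log2 difference of -0.46 (SE 0.18). Lss, lanosterol synthase, had one of -0.43 (SE 0.19). For 15 of the 26 genes the interval lay within 1.5-fold. At 3 weeks 20 of the 26 were called lower with a median of -1.08 (14.4% of all genes were called), and for 11 the difference between ages had an FDR below 0.05 in edgeR, beside 2.49% of all genes. In males at 8 weeks the median was 0.08.

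Of 22 bile acid genes and 25 genes of CAR and PXR metabolism, 1 each had an unadjusted p below 0.05, beside 2.23% of all genes. Without MF1 4 of each had such a p, and without CF1 or CF3 none of the bile acid genes and without CF2, MF3 or MF4 none of the CAR and PXR genes. Nr0b2, the bile acid receptor target SHP, had a log2 difference of -0.78 (SE 0.31) and was at 17.1 to 39.8 CPM in CF and at 16.4 to 20.3 CPM in MF. Cyp1a2, a xenobiotic-metabolizing cytochrome, had one of -0.45 (SE 0.19). Medians of the gluconeogenesis and bile acid lists were 0.05 and -0.09, and without single libraries ranged from 0.01 to 0.08 and from -0.14 to -0.04. Fatty acid synthesis had no stable direction, with a median of 0.04 over 16 genes that was -0.23 without MF1 (13 lower, 3 at an unadjusted p below 0.05) and 0.28 without MF2 (12 higher).

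Collagen and matrix genes had the highest median of the 24 lists of pathways in the fit of all libraries, but not without MF3 or without MF2, where fatty acid synthesis had 0.23 and 0.28, nor without CF1, where the cell cycle list had 0.32. Of 24 tested genes, 22 were higher in MF with a median of 0.25, and 5 had an unadjusted p below 0.05, all higher, beside 1.11% of all genes in that direction: Col4a2, Col4a1, Sparc, Col3a1 and Col5a2. Col4a2, a basement membrane collagen, was at 25.2, 28.2, 26.0 and 27.9 CPM in CF and at 37.8, 42.4, 41.1 and 30.6 CPM in MF, with no overlap and a log2 difference of 0.50 (SE 0.15). Col3a1, a fibrillar collagen, was at 58.4, 59.9, 44.5 and 34.6 CPM in CF and at 56.0, 65.7, 113 and 67.0 CPM in MF. Its log2 difference of 0.61 was 0.36 without MF3. Without MF3 the list median was 0.13 with 2 genes at an unadjusted p below 0.05, and without CF3 1 gene remained at that p. The 10 stellate cell and fibroblast markers, which include Col3a1, summed to 483 to 502 CPM in CF and 508 to 594 CPM in MF. All 10 sinusoidal endothelium markers were also higher in MF, with a median of 0.15 (0.04 to 0.41 without single libraries) and summed levels that overlapped. The part of both cell types in the list was not tested. At 3 weeks 1 gene of the list was called, beside 14.4% of all genes.

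Interferon, clock and stress genes held 1 or 2 genes each at an unadjusted p below 0.05, beside 2.23% of all genes. Irf1, a transcription factor induced by interferon, was at 54.9, 60.7, 43.7 and 59.2 CPM in CF and at 43.2, 45.0, 35.3 and 40.3 CPM in MF, a log2 difference of -0.42 (SE 0.13). It was the only one of 36 interferon genes at an unadjusted p below 0.05, and the list median was -0.06 at 8 weeks and -1.15 at 3 weeks. The 8-week median was 0.00 without CF2, with 18 genes higher and 18 lower, and -0.11 without CF4 or MF2. Without CF4 5 of the 36 and without MF1 4 had such a p. The clock repressors Cry1 (-0.35, SE 0.13) and Ciart (-0.54, SE 0.23) were the 2 of 21 clock genes at that p, against 0 without MF4, 1 without CF1, CF2 or MF3 and 3 without MF1, and CF2 held the highest Ciart of all libraries, at 41.3 CPM. Without CF2 the Ciart difference was -0.21. Egr1, an immediate early gene, was at 86.3 CPM in CF1 and at most 32.8 CPM elsewhere, and its log2 difference of -0.90 was -0.18 without CF1. The chaperones Hyou1 (-0.63) and Dnajb9 (-0.43) were the 2 of 25 heat shock and unfolded protein genes at that p, and 22 of the 25 were lower with a median of -0.18. Without CF1 none of the 25 was at that p, 16 were lower, the median was -0.10 and Hyou1 was at -0.37. Without CF3 none was at that p and Dnajb9 was at -0.27, without CF2 there were 6, and without MF1 the median was -0.07.

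Large, evenly expressed groups had medians near 0 in the fit of all libraries. All but 1 of the 36 genes of mitochondrial electron transport were lower in MF, with a median of -0.07, and 31 of them were held within 1.5-fold. This order rested on MF3, without which 23 of the 36 were higher, and without MF1 the median was -0.22 with 4 genes at an unadjusted p below 0.05. MF1 held the highest summed level, 9275 CPM against 6206 to 6484 CPM in the other MF libraries. Of 82 ribosomal protein genes, 61 were lower with a median of -0.05, and 64 were higher without MF3, while without MF1 the median was -0.19. In the 10 hepatocyte, 12 macrophage, 9 B cell and 11 T and NK cell markers, the NK receptor Klrb1c was the 1 gene with a low unadjusted p in the fit of all libraries, at -0.70 on the log2 scale.

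Sex-biased genes showed no common direction. Of 38 tested male-biased liver genes, 2 were higher and 4 lower at an unadjusted p below 0.05, and of 37 female-biased genes 1 was higher and 1 lower, beside 1.11% of all genes in each direction. Without single libraries 2 to 7 of the male-biased and 0 to 5 of the female-biased genes had such a p. In the fit of the 8 female libraries alone 34 male-biased genes passed the filter, and 1 had such a p. The rest of the male-biased genes passed the filter only with the male libraries included. With limma voom 3 male-biased genes had such a p. Cyp2d9, a male-biased cytochrome, was at 60.7, 50.6, 31.3 and 48.1 CPM in CF and at 75.7, 76.9, 152 and 46.5 CPM in MF, and its log2 difference of 0.88 was 0.49 without MF3. A1bg, a female-biased plasma protein, was at 206 to 762 CPM in CF and at 318 to 1405 CPM in MF, a log2 difference of 0.93 (SE 0.38). Bcl6, which represses female-biased genes, was at 6.08 to 41.5 CPM in CF and at 6.73 to 15.3 CPM in MF, a log2 difference of -1.16 (SE 0.51) that was -0.63 without CF4.

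**Figure D4:**
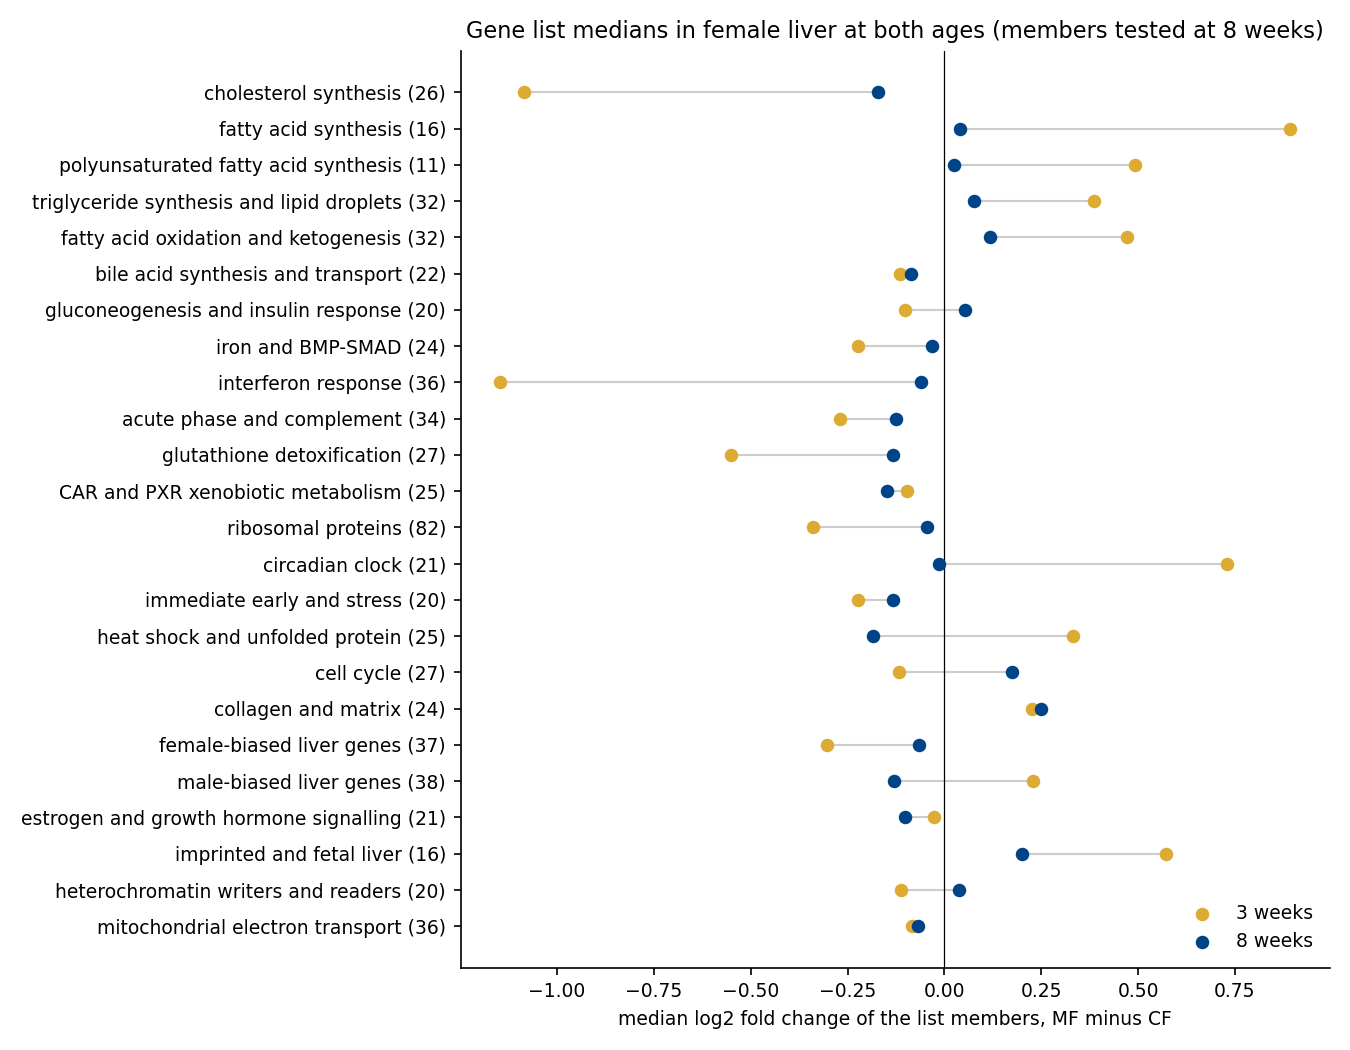
Each row is 1 of 24 gene lists with the number of members tested at 8 weeks; the horizontal axis is the median log2 fold change of MF minus CF over its members, in yellow at 3 weeks and in blue at 8 weeks. The 8-week medians lie between -0.18 (heat shock and unfolded protein) and 0.25 (collagen and matrix), and cholesterol synthesis goes from -1.08 to -0.17.

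A further question was what became of the genes that differed before weaning. At 3 weeks, in another set of 8 animals prepared with another library kit, 2180 of 15097 genes (14.4%) were called between MF and CF, and 31.2% had an unadjusted p below 0.05. Of these, 2106 were tested at 8 weeks, 0 were called, and 65 had an unadjusted p below 0.05 (3.09%, beside 2.23% of all genes), 47 in the direction of 3 weeks and 18 opposite to it. The 65 became 176 without MF1, 99 without CF2 and 40 without MF3. Their median log2 size was 0.54 at 3 weeks, and their median in the 3-week direction was 0.03 at 8 weeks. The 8-week interval lay within 1.5-fold for 1352 of them (64.2%) and left out the 3-week value for 1520 (72.2%). The latter count takes the 3-week value without its error, and the test of the difference between ages, given below, called fewer genes. The direction was kept by 1245 genes (59.1%), against 53.9% of 11767 genes not called at 3 weeks. This share rested on MF3, without which it was 49.2%. In the 191 genes with an FDR below 0.01 and at least 2-fold at 3 weeks, 135 (70.7%) kept the direction and 12 had an unadjusted p below 0.05 in it.

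The change of the contrast between ages was called for 346 of 13891 genes (2.49%), with 2193 at an unadjusted p below 0.05 (15.8%). The 346 became 175 to 509 without single libraries, 130 with the replicate number as a block, 540 with the likelihood ratio test and 696 with DESeq2. It was called for 321 of the 2105 genes tested among those called at 3 weeks, and the contrast of all 321 moved against its 3-week direction. Since these genes were chosen by their size at 3 weeks, a smaller value at 8 weeks is in part set by that choice. Age and library kit cannot be told apart in this test. Among genes called at 3 weeks whose libraries did not overlap and whose mean was at least 1 CPM, the 12 largest differences were those of Hamp, Hamp2, Gm44662, Pnpla5, Mup15, Pnpla3, Apoa4, Tsku, Mup17, Usp2, Gm10680 and Gm47528, and for all 12 the 8-week interval included 0. Apoa4, an apolipoprotein of triglyceride-rich particles, was at 115 ± 24 CPM in CF and 1622 ± 980 CPM in MF at 3 weeks, and at 316 ± 52 and 383 ± 90 CPM at 8 weeks. Usp2, a deubiquitinase of the clock, had a log2 difference of 3.49 at 3 weeks and -0.20 at 8 weeks (0.15 without CF2), with CF2 at 73.4 CPM against 34.4 to 37.2 CPM in the other CF libraries. Tsku, a secreted factor of the liver, had 3.74 and -0.32, and the major urinary protein genes Mup15 and Mup17, whose near copies make their counts uncertain, had 3.85 and 3.64 at 3 weeks and -0.14 and 0.06 at 8 weeks.

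Pnpla3 and Pnpla5, lipid hydrolases, kept a wide spread. Pnpla3 was at 6.95 to 10.2 CPM in CF and at 19.4, 1.62, 3.96 and 18.2 CPM in MF, so MF2 and MF3 lay below and MF1 and MF4 above all CF livers. Its log2 difference was 0.47 (SE 0.51), against 3.84 at 3 weeks, and was 0.02 without MF1, 0.83 without MF2 and -0.10 with limma voom. Pnpla5 followed the same order, at 4.12, 0.108, 0.612 and 2.86 CPM in MF1 to MF4 and at 0.659 to 1.35 CPM in CF. Cd36 differed from these genes in that its MF libraries were all high. Its log2 difference went from 2.28 at 3 weeks, when MF was at 130 to 201 CPM, to 1.15 at 8 weeks. This change of -1.13 (SE 0.33) had an FDR of 0.0862 (edgeR). The 8-week interval of Cd36 left out the 3-week value, taken without its error. The study names 61 genes for MO at 3 weeks, chosen on the 3-week libraries. Of these, 60 were tested at 8 weeks, 50 were called at 3 weeks here, and 5 of the 50 had an unadjusted p below 0.05 at 8 weeks, beside 3.09% of all genes called at 3 weeks, all in the 3-week direction: Cd36, Irf1, Cidec, Lss and Bbc3. Of these 5, only Cd36 and Irf1 kept such a p in every repeat without 1 library. Cidec lost it without MF3, Lss without CF3 and Bbc3 without CF4.

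**Figure D5:**
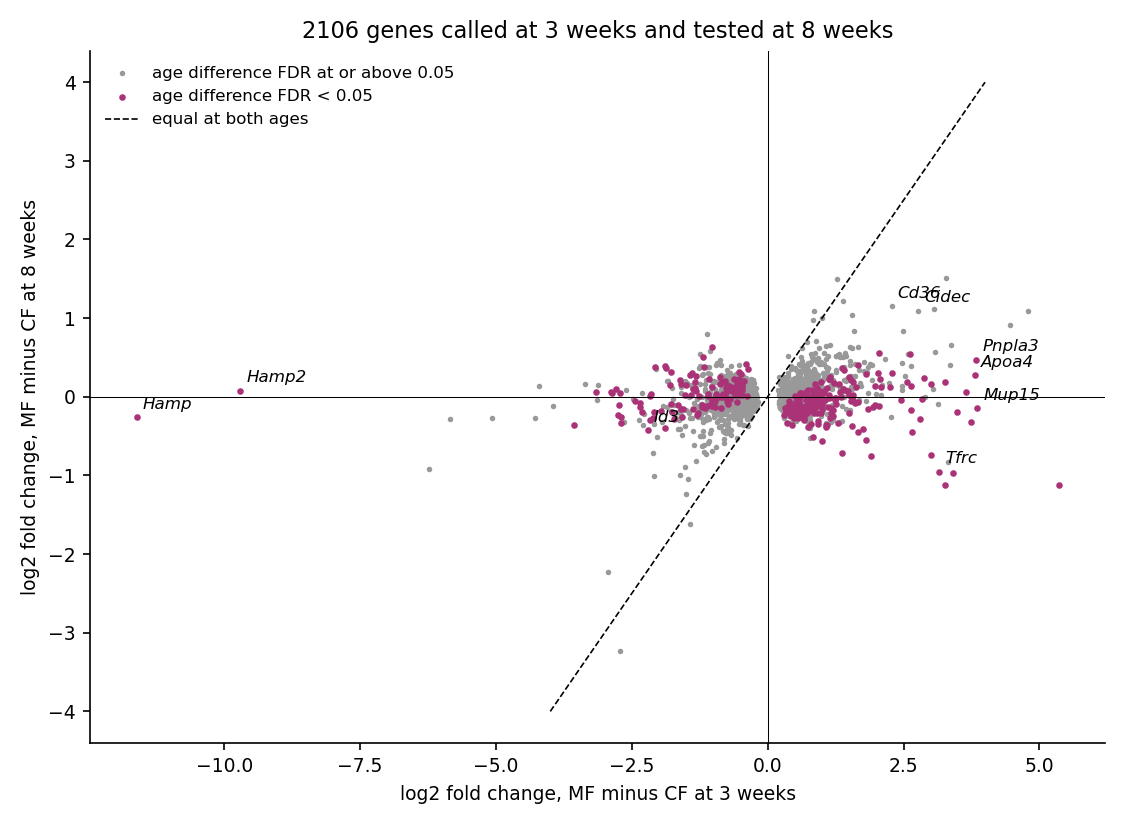
Each point is 1 of 2106 genes called at 3 weeks, with its log2 fold change of MF minus CF at 3 weeks on the horizontal and at 8 weeks on the vertical axis; purple marks genes whose difference between ages has an FDR below 0.05 and the dashed line is equality. Most points lie near 0 on the vertical axis, Hamp and Hamp2 at the far left among them, with Cd36 above and Tfrc below.

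The effect of MO was also set beside that of males of the same age, which share no library with the females. Between MM and CM 4 genes were called (0.0282%) and 849 had an unadjusted p below 0.05 (5.98%). The difference between the sexes of the MO effect was called for 0 of 14195 genes in edgeR's quasi-likelihood test, with 386 at an unadjusted p below 0.05 (2.72%), for 4 genes in the likelihood ratio test and for 3 in DESeq2. At an unadjusted p below 0.05 in both sexes were 62 genes, 19.6% of the 316 of females and 7.30% of the 849 of males. The same direction was held by 58 of the 62, and by 234 (74.1%) of the 316. Both contrasts came from 1 fit with a shared estimate of the spread of each gene, so the overlap is not that of independent tests. Slc39a5 and Slc40a1 (0.32 in males) were among the 62, as was Kyat3, a kynurenine aminotransferase, at -0.43 in females and -0.71 in males. Eif4ebp3, a repressor of translation, was at -0.82 in females and -1.72 in males, where it was called with an FDR of 0.00751 (edgeR). Irf1 was 1 of the 4 with opposite directions, at -0.42 in females and 0.41 in males. Whether males and females came from the same litters was not given in the sources used here.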

How the data were processed

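The 8-week set holds liver mRNA of 16 animals, 4 per group. Per the labels and the study's methods, STAR placed the reads on mm10 and featureCounts assigned them to genes after the authors had removed reads of low quality or with several positions. Versions and strand setting are not given in the sources used here. The deposited counts are raw reads per gene, already limited to genes the authors kept. The deposited log2 values, signed fold scores and p-values are the authors' normalized values and comparisons and were not used.

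A gene entered the test when 4 or more of the 16 libraries held 15 or more of its reads (14195 of 14242 listed) in R 4.3.3 with edgeR 4.0.16: TMM scaling, 1 mean per group, quasi-likelihood test of MF minus CF, Benjamini-Hochberg adjustment over all genes, calls at FDR below 0.05. CPM are on TMM-scaled library sizes and are given as mean ± SD over 4 animals. An SE is the log2 fold change divided by the square root of its F statistic, and 95% intervals used the t distribution of the fit. The difference between ages was fitted on 16 female libraries of both ages (13891 genes), and that between sexes on the 16 libraries of 8 weeks. DESeq2 1.42.0, limma 3.58.1, other scalings and filters, the replicate number as a block, and each library left out were alternatives. The edgeR step was tested on simulated data.

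Named genes are the 12 of smallest p, the 12 largest called at 3 weeks without overlap and with a mean of at least 1 CPM, per list the member of smallest p and of highest level, genes the study names for 3 weeks, Reg3g and Xist. Members of a list at an unadjusted p below 0.05, IRE genes and genes shared by both sexes were also named, chosen after their values were seen. The members, gene lists (24 of pathways, 12 of cell type markers) and rules were chosen with earlier results of these data known. Some results are not reported here.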

Additional observations from a re-analysis of the deposited data

Results flagged for a closer look

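In 200 groups of 4 libraries checked for a single library far from the other 3, 12 (6.0%) had one, where chance gives about 1 in 20. MF1 was the high library for Sult2a7 (4.91 CPM), Gm44662 (2.74 CPM) and the summed mitochondrial electron transport genes (9275 CPM). MF3 was high for Cfd (4.38 CPM) and low for Bbc3 (5.87 CPM). CF2 was high for Usp2 (73.4 CPM) and the summed clock genes (1737 CPM) and low for Slc11a2 (17.8 CPM). CF3 was high for Pnpla3 (10.2 CPM), and CF4 was low for Ftl1 (1224 CPM), Cidec (0.314 CPM) and Acot2 (3.04 CPM).

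The MF minus CF contrast differed between 8 and 3 weeks, by the test of the difference itself, for 346 genes (edgeR FDR below 0.05). Among genes named here, the log2 change of the contrast from 3 to 8 weeks was positive for Hamp (11.4), Hamp2 (9.80), Id3 (1.79) and Gm6969 (1.60). It was negative for Gm10680 (-4.38), Tfrc (-4.10), Tsku (-4.07), Mup15 (-3.99), Usp2 (-3.68), Mup17 (-3.59), Apoa4 (-3.54), Pnpla3 (-3.36), Ciart (-2.66) and Slc11a2 (-0.96).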

How the results depend on the processing

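The count of 0 called genes between MF and CF was also given by limma voom, 3 other scalings, 2 other filters, the fit of the 8 female libraries alone and all 8 repeats without 1 library. It was 2 with the likelihood ratio test, 2 with the exact test and 2 with DESeq2. The sex difference gave 4 genes with the likelihood ratio test, 3 with DESeq2 and 0 to 1 without single libraries. The age difference gave 540 with the likelihood ratio test, 696 with DESeq2, and 175 to 509 without 1 of its 16 libraries. The lowest counts were 176 without CF3 and 200 without MF4 of 8 weeks, and 175 without CF3, 201 without CF4, 218 without MF5 and 223 without MF6 of 3 weeks. With the replicate number as a block, which does not pair these animals (deviations of same-numbered libraries correlated at -0.46 to -0.04), the counts were 0 for MF against CF, 0 for the sex difference and 130 for the age difference. The cause of these differences was not tested. The share of 3-week genes that kept their direction ranged from 49.2% to 61.6% without single libraries. The first principal component gave exact permutation p-values of 0.171 to 0.943 without single libraries and 0.629 on the most variable genes, unscaled.

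Some log2 values changed sign. Hamp2 was -0.48 and Pnpla3 -0.10 with voom, Ftl1 was 0.0019 with voom and 0.016 with total counts, and with the block Hamp2 was -0.42 and Mup17 -0.11. Without single libraries Hamp2 ranged from -1.18 to 0.40, Mup15 from -0.44 to 0.059, Mup17 from -0.23 to 0.30, Usp2 from -0.46 to 0.15, Fth1 from -0.34 to 0.038, Ftl1 from -0.15 to 0.043 and Xist from -0.064 to 0.19. At an unadjusted p below 0.05 in every repeat without 1 library were 67 of the 316 genes, Cd36, Atxn1, Tfrc, Slc40a1, Irf1, Col4a2 and Acot2 among them. The median of the iron and BMP-SMAD list was -0.11 without MF1. Scaling moved the median of all genes by at most 0.04.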

Other observations

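Lists not described above had 0 called genes each, and their counts at an unadjusted p below 0.05 stand beside 2.23% of all genes. Of 27 cell cycle genes 23 were higher in MF (median 0.18 on the log2 scale) and of 16 imprinted and fetal liver genes 13 were higher (median 0.20), with 0 at an unadjusted p below 0.05 in both lists. Without single libraries, 16 to 26 of the cell cycle genes were higher (median 0.08 without MF3 to 0.32 without CF1), as were 9 to 13 of the imprinted and fetal genes (median 0.10 to 0.24). Genes of glutathione detoxification (21 of 27 lower, median -0.13), acute phase and complement (24 of 34 lower, median -0.12) and xenobiotic metabolism by CAR and PXR (21 of 25 lower, median -0.15) were mostly lower, with Cyp1a2 the only one of these at that p in the fit of all libraries. Without MF1 the glutathione list had a median of -0.25 with 7 genes at that p and the CAR and PXR list had 4. Over all repeats without 1 library the medians ranged from -0.25 to -0.08, from -0.13 to -0.07 and from -0.17 to -0.07. Polyunsaturated fatty acid synthesis (median 0.03 over 11 genes) and heterochromatin writers and readers (median 0.04 over 20) had none, immediate early and stress genes (median -0.13 over 20) had 1, and estrogen and growth hormone signalling (median -0.10 over 21) had 2, against 0 without CF1 and 3 without CF2, with medians of -0.14 to -0.05 without single libraries. Without CF1 the median of the immediate early list was 0.02. Among markers of other cells, those of cholangiocytes had a median of -0.18 over 8 genes and a summed level of 105 to 145 CPM in CF and 100 to 129 CPM in MF. Only 3 of 10 neutrophil, 2 of 12 pancreas and 1 of 8 skeletal muscle markers were tested, with 0 at that p.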
